A study of Homo sapiens with 8 samples.

Results

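Carbonyl reductases and aldo-keto reductases use NADPH to turn reactive aldehydes and ketones into alcohols. Both are abundant in liver, where they act on quinones, lipid aldehydes, prostaglandins, steroids and drugs such as doxorubicin. The carbonyl reductases belong to the short-chain dehydrogenase family, whereas the aldo-keto reductases have an unrelated barrel fold and fall into subfamilies such as AKR1 and AKR7. A set of 10 genes from both families, out of 16169 genes in either count table, was chosen by family name around CBR1, whose near-complete loss in the SOX4 knockout was already known, to ask whether that loss extends to its neighbour CBR3 or to other enzymes of the kind. They are the 4 carbonyl reductases CBR1, CBR3, CBR4 and DCXR and the 6 aldo-keto reductases AKR1A1, AKR1B1, AKR1B10, AKR1C1, AKR1C2 and AKR7A2. Of the 10 members, 9 had rows in both tables. AKR1B1, aldose reductase, was not analysed here.

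All 8 RNA-seq libraries came from Hep3B, an established human hepatocellular carcinoma line, with a pair of libraries in each of 4 conditions. Hep3B cells were set against Hep3B SOX4 knockout cells, which were made with CRISPR/Cas9 and kept in puromycin, and scramble siRNA against STAT6 siRNA. The sources used here do not give whether the Hep3B controls had gone through vector delivery and selection, or which knockout line, #1 or #2, each knockout library came from. For the knockout, the study's methods list both lines, so its pair may be separate lines. For the other pairs no source says that they came from separate cultures, and their spread, on which the p-values rest, may be technical. SOX4 encodes a transcription factor, and STAT6 the signal transducer activated by interleukin-4.

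Library totals lay between 16266282 and 25353113 expected counts. SOX4 itself had 799 and 266 CPM (read counts scaled to library size and TMM-normalised) in Hep3B and 298 and 302 CPM in the knockout libraries, so its transcript level overlapped between the groups and does not check the edit. STAT6 had 42.5 and 31.4 CPM with scramble siRNA and 9.92 and 5.98 CPM with STAT6 siRNA, and it was also lower in the SOX4 knockout, with 2.76 and 2.2 CPM against 32.0 and 13.2 CPM in Hep3B. All 10 hepatocyte markers examined had rows, with ALB at 5100 CPM or more in every library. Of the 6 markers of other cell types, the T cell gene CD3E had no row and the leukocyte gene PTPRC stayed between 0.0 and 0.227 CPM where it was listed. PECAM1 (endothelium) reached 0.77 CPM, COL1A1 (fibroblast) 9.35 CPM and KRT7 (bile duct) 13.9 CPM. The macrophage gene CD68 was present in all 8 libraries, at 28.0 to 92.4 CPM. The summed level of the 10 hepatocyte markers was 11700 to 16300 CPM in Hep3B and 31400 to 53000 CPM in the knockout libraries. Of these markers 4 (TTR, APOH, APOA1 and FGB) were called higher there, calls that were lost on leaving out either knockout library. With offsets for GC content and length and the library number as a block, 0 were called. After STAT6 siRNA 0 of the 10 were called, but those offsets with the block called 5 higher, among 359 genes called of 13554. Over all genes tested in the knockout, 4.5% were called higher. The summed level of the other cell type markers moved as well, from 35.2 to 46.0 CPM in Hep3B against 82.4 to 116 CPM in the knockout. Most of that sum was CD68, with means of 35.5 CPM in Hep3B and 82.7 CPM in the knockout. The part of either shift in the differences given for the reductases was not tested.

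Sequence before a RefSeq start is shown for 3 members, CBR1 because it was lost and AKR1C1 and AKR1C2 because they rose together. RefSeq start regions (GRCh38.p14) were matched for 8 of the 10 members, and the stretches printed end before the gene start given in the tables for CBR1 and AKR1C1, and at the paired base for AKR1C2. Capitals mark a match to TGACNNNGC, the core of the antioxidant response element, read on the opposite strand in CBR1, and to TTCNNNNGAA, the palindrome bound by STAT6, in the AKR1C genes. The CBR1 stretch lies at chr21:36069774-36069923 on the plus strand, the AKR1C1 stretch at chr10:4963165-4963261 on the plus strand and the AKR1C2 stretch at chr10:5004015-5004107 on the minus strand. The AKR1C2 stretch lies before a RefSeq start that is inside the gene as the tables give it, not before the outer start of its listed transcripts.
CBR1: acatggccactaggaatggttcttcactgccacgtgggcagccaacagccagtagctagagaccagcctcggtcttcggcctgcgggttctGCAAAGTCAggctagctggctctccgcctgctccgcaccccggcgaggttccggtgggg
AKR1C1: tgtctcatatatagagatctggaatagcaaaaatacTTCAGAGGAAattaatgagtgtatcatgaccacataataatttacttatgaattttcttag
AKR1C2: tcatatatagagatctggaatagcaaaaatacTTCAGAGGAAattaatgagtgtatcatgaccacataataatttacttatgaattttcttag

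Over the 250 bases before the RefSeq start, AKR1C1 and AKR1C2 were identical at 245 of 246 aligned bases. The same window held 23 CpG dinucleotides in CBR1 and 2 in each of the AKR1C genes, against a median of 11 over 35116 promoters. The antioxidant response element core, searched on both strands, was found in CBR1 and AKR7A2 among the members and in 10.9% of all promoters. The STAT6 palindrome was found in AKR1C1 and AKR1C2 and in 5.38% of all promoters, and the SOX motif AACAAAG in a promoter of AKR1B1 and in 4.5% of all promoters. These matches describe letters in a window, not sites of binding.

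The 9 members measured did not move together in the SOX4 knockout. CBR1 was nearly absent, AKR1C1 and AKR1C2 were about 24.2-fold and 22.5-fold higher, DCXR was 2.83-fold higher, and CBR3, the neighbour of CBR1, was counted at least as often as in Hep3B. The plot of members by library shows all these values.

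**Figure D1:**
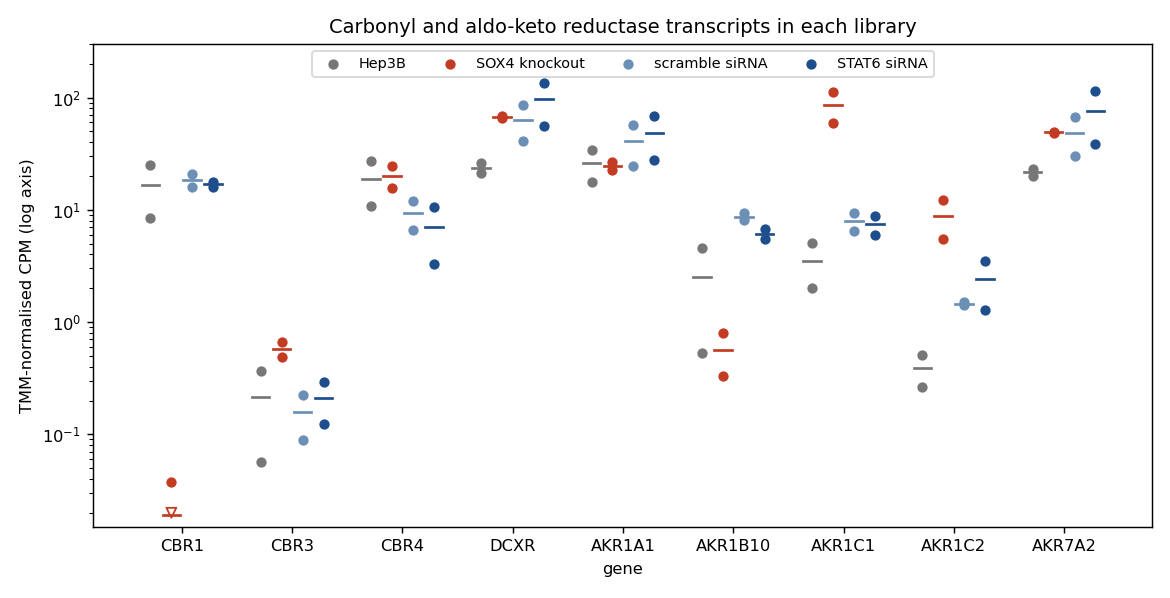
TMM-normalised CPM (log axis) of the 9 measured members in each of the 8 libraries, coloured by condition, with a bar at the mean of the pair and an open triangle at the bottom for a library at 0. CBR1 in the knockout (1 and 0 counts) has the lowest mean, close to single CBR3 libraries, and AKR1C1 in the knockout (111 and 59.6 CPM) lies above the other 6 libraries, while the tables of the knockout and the siRNA libraries were scaled separately.

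CBR1 (chr21:36069924-36073178, plus strand) encodes the cytosolic carbonyl reductase that reduces quinones, prostaglandins and anthracyclines. Hep3B libraries 1 and 2 held 8.46 and 24.9 CPM (149 and 473 counts), and the knockout libraries 0.0379 and 0.0 CPM (1 and 0 counts). With 622 counts against 1, the ratio was 758-fold lower with an exact 95% interval of 136 to 30000, which covers counting error only. The groups do not overlap, although the Hep3B libraries themselves differ widely. In bulk RNA, fewer cells with the transcript and less of it per cell cannot be told apart. Because CBR1 was chosen for this fall, it is described and not tested. The ratio was 377 without Hep3B library 2, 1110 without Hep3B library 1 and 449 without knockout library 2, and without knockout library 1 no count was left and CBR1 was at least 103-fold lower against a floor of 3 counts per library.

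Both listed CBR1 transcripts were near 0 in the knockout. NM_001757 made up 93.5% to 97.0% of CBR1 counts in the other 6 libraries, and NM_001286789 made up the rest. In the knockout libraries NM_001757 had 1.0 and 0.02 expected counts and NM_001286789 had 0.0 in both. GENCODE 29 places a SETD4 transcript over CBR1 on the opposite strand. The libraries were made with a stranded kit, but the strand setting of the counting is not given in the sources used here.

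After STAT6 siRNA, CBR1 had 17.8 and 16.1 CPM against 20.8 and 16.1 CPM with scramble siRNA. The pairs overlapped, and the log2 change came to -0.12 (SE 0.69, edgeR adjusted p = 1.00, where SE is the standard error and the p comes from the quasi-likelihood test, adjusted over all genes by Benjamini-Hochberg). CBR1 was therefore present in all 6 libraries outside the knockout, at 8.46 to 24.9 CPM, including those that received STAT6 siRNA. The log2 change in the knockout minus that with the siRNA was -9.17, given as a description since it contains the contrast that chose CBR1.

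CBR3 (chr21:36134965-36146563, plus strand) is the close relative that begins 65.0 kb downstream of the start of CBR1 and also reduces quinones and anthracyclines. It was barely expressed, with 1 and 7 counts in Hep3B, 13 and 12 in the knockout, 4 and 2 with scramble siRNA and 4 and 3 with STAT6 siRNA. Both knockout libraries were above both Hep3B libraries, at 0.492 and 0.66 CPM against 0.0568 and 0.369 CPM. CBR3 did not pass the filter on low counts and was not tested in the fits reported. When no filter was applied, its log2 fold change was 1.39 (SE 1.07, edgeR adjusted p = 0.449) in the knockout and 0.34 (SE 1.12, edgeR adjusted p = 1.00) after STAT6 siRNA. The loss of CBR1 counts thus did not extend to CBR3 counts, and a rise was not detectable at this depth. CBR1 and CBR3 shared none of their stretches of 75 bases, and CBR3-AS1 overlaps CBR3 on the opposite strand.

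CBR3 is 1 of 7 genes in the tables that lie within 500 kb of CBR1. Of the 6 of them that were tested in the knockout, 0 were called lower and 1, CLDN14, was called higher, where over all genes tested 1.39% were called lower and 4.5% higher. The DESeq2 Wald test gave the same counts, and at an unadjusted edgeR p below 0.05 there were 2, CLDN14 and MORC3. CLDN14 was not called without knockout library 1, without knockout library 2 or with GC and length offsets and the replicate block. SETD4, a methyltransferase gene upstream of CBR1, had 12 and 10.2 CPM in Hep3B and 7.19 and 6.87 CPM in the knockout, with a log2 change of -0.66 (SE 0.44, edgeR adjusted p = 0.38). CBR3-AS1 was at -0.43 (SE 0.61), DOPEY2 at 0.57 (SE 0.36), MORC3 at -1.04 (SE 0.42) and CHAF1B, a chromatin assembly factor subunit, at -0.17 (SE 0.37), all on the log2 scale and none called.

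CLDN14, a tight junction claudin 390.7 kb from CBR1, had 3 and 0 counts in Hep3B and 187 and 63 in the knockout. The ratio was 68.4-fold higher with an exact 95% interval of 23.1 to 334, and the adjusted p was 0.0298 from edgeR. CLDN14 passed the filter on low counts only through the knockout libraries, so it had to be higher there to be tested. It had 0 counts in both scramble libraries and 6 and 4 with STAT6 siRNA. In the knockout libraries SETD4, DOPEY2, MORC3 and CHAF1B had 6.87 to 50.2 CPM, and CBR3-AS1 had 1.55 and 1.32 CPM against 1.99 and 1.9 CPM in Hep3B. SETD4, MORC3 and CBR3-AS1 had both knockout libraries below both Hep3B libraries, as did 27.4% of all genes tested. DOPEY2, CLDN14 and the untested CBR3 had both above, as did 30.6% of all genes tested.

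CBR4 (chr4:168987591-169010318, minus strand) is a mitochondrial carbonyl reductase that pairs with HSD17B8 in mitochondrial fatty acid synthesis. Hep3B held 27.1 and 10.8 CPM and the knockout 24.5 and 15.7 CPM, and the groups overlapped. The log2 change came to 0.09 (SE 0.52, edgeR adjusted p = 0.934). With scramble siRNA it had 6.61 and 12.1 CPM and with STAT6 siRNA 3.31 and 10.6 CPM, a log2 change of -0.43 (SE 0.81, edgeR adjusted p = 1.00). In both siRNA groups the library numbered 1 was the lower. Its partner HSD17B8 was called higher in the knockout, with 1.25 and 1.05 CPM in Hep3B and 8.9 and 10.8 CPM in the knockout. In the scramble libraries HSD17B8 had 10.0 and 3.55 CPM.

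DCXR (chr17:82035881-82037698, minus strand) reduces dicarbonyls and L-xylulose in the uronate cycle. Hep3B held 21.3 and 26.1 CPM and the knockout 68.7 and 65.4 CPM, so the groups did not overlap. The log2 change was 1.5 (SE 0.35, edgeR adjusted p = 0.0494), just inside the threshold. It was called in 5 of 13 alternatives, with adjusted p from 0.00519 to 0.265, and its log2 fold change was 0.82 with offsets for GC content and length together with the library number as a block. With scramble siRNA DCXR had 86.6 and 40.8 CPM, a range that holds both knockout values, and with STAT6 siRNA 136 and 56.2 CPM. After STAT6 siRNA the log2 change came to 0.59 (SE 0.65, edgeR adjusted p = 1.00).

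AKR1A1 (chr1:45550783-45570052, plus strand), the general aldehyde reductase, showed no difference beyond the spread. Hep3B held 17.8 and 34.2 CPM and the knockout 22.7 and 26.9 CPM, which lay between the Hep3B values. The log2 change was -0.07 (SE 0.42, edgeR adjusted p = 0.935). With scramble siRNA it had 57.0 and 24.5 CPM and with STAT6 siRNA 69.1 and 27.9 CPM, with the library numbered 1 the higher in both groups.

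AKR1B10 (chr7:134527592-134541415, plus strand) reduces retinal and lipid aldehydes and is known for its high level in many liver tumours. Hep3B held 4.54 and 0.527 CPM and the knockout 0.795 and 0.33 CPM. The groups overlapped, and the log2 change of -2.13 (SE 1.05) had an adjusted p of 0.242 from edgeR. This value rests on Hep3B library 1, since without it the log2 change came to 0.06 (edgeR adjusted p = 0.979) and without Hep3B library 2 it was -2.97 (edgeR adjusted p = 0.0426). With scramble siRNA AKR1B10 had 9.27 and 8.09 CPM, and with STAT6 siRNA 5.44 and 6.68 CPM. It was the only member whose siRNA libraries were both below both scramble libraries, with a log2 change of -0.52 (SE 0.73, edgeR adjusted p = 1.00). Over all genes tested, 5.26% had this arrangement and 2.74% the opposite one.

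AKR1C1 (chr10:4963262-4977967, plus strand) is a hydroxysteroid dehydrogenase that inactivates progesterone and reduces many xenobiotic ketones. Hep3B libraries 1 and 2 held 5.05 and 2.0 CPM, and the knockout libraries 111 and 59.6 CPM. The log2 change came to 4.6 (SE 0.60, edgeR adjusted p = 0.0152), and it was called in 12 of 13 alternatives, the exception being the fit without knockout library 2 (log2 fold change 4.96, edgeR adjusted p = 0.054). With scramble siRNA it had 9.33 and 6.53 CPM and with STAT6 siRNA 8.89 and 5.94 CPM, which overlap. There the log2 change came to -0.10 (SE 0.74, edgeR adjusted p = 1.00). The change in the knockout minus that with the siRNA was 4.58 in log2 units (SE 0.89, edgeR adjusted p = 0.0852), which did not pass, and its adjusted p lay from 0.000769 to 0.382 over the alternatives.

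AKR1C2 (chr10:4987776-5018034, minus strand), a hydroxysteroid dehydrogenase that inactivates dihydrotestosterone, moved in the same direction. Hep3B held 0.511 and 0.264 CPM and the knockout 12.2 and 5.44 CPM. AKR1C2 passed the filter on low counts only through the knockout libraries, so it had to be higher there to be tested. Its calls are therefore no support for the rise. The log2 change was 4.49 (SE 0.74, edgeR adjusted p = 0.0234), and it was called in 9 of the 12 alternatives in which it was tested. Without knockout library 1 the adjusted p was 0.152, without knockout library 2 it was 0.0869, both from edgeR, and with those offsets and the block it was 0.0522 from edgeR. With scramble siRNA AKR1C2 had 1.41 and 1.51 CPM and with STAT6 siRNA 3.53 and 1.28 CPM, a log2 change of 0.70 (SE 0.80, edgeR adjusted p = 1.00). Its difference between the effects was 3.66 in log2 units (SE 1.07, edgeR adjusted p = 0.298).

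The AKR1C1 and AKR1C2 counts are not fully separate measurements. Of the stretches of 75 bases in AKR1C2 transcripts, 39.5% also occur in AKR1C1, so the estimate of expected counts divides some reads between them. AKR1C2 took 9.56% and 10.7% of their joint counts in Hep3B and 9.86% and 8.36% in the knockout, so that the share was much the same while both rose. With scramble siRNA the share was 13.0% and 18.9%, and with STAT6 siRNA 28.2% and 17.8%.

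AKR7A2 (chr1:19302708-19312147, minus strand) is an aldehyde reductase that acts on succinic semialdehyde and on aflatoxin dialdehyde. Hep3B held 20.2 and 23.3 CPM and the knockout 49.1 and 48.8 CPM, with no overlap. The log2 change of 1.17 (SE 0.35) had an adjusted p of 0.0876 from edgeR and was not called, and the DESeq2 Wald test gave an adjusted p of 0.0414. With scramble siRNA AKR7A2 had 66.9 and 30.1 CPM, again a range that holds both knockout values, and with STAT6 siRNA it had 114 and 38.2 CPM. The log2 fold change there was 0.65 (SE 0.69, edgeR adjusted p = 1.00).

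**Figure D2:**
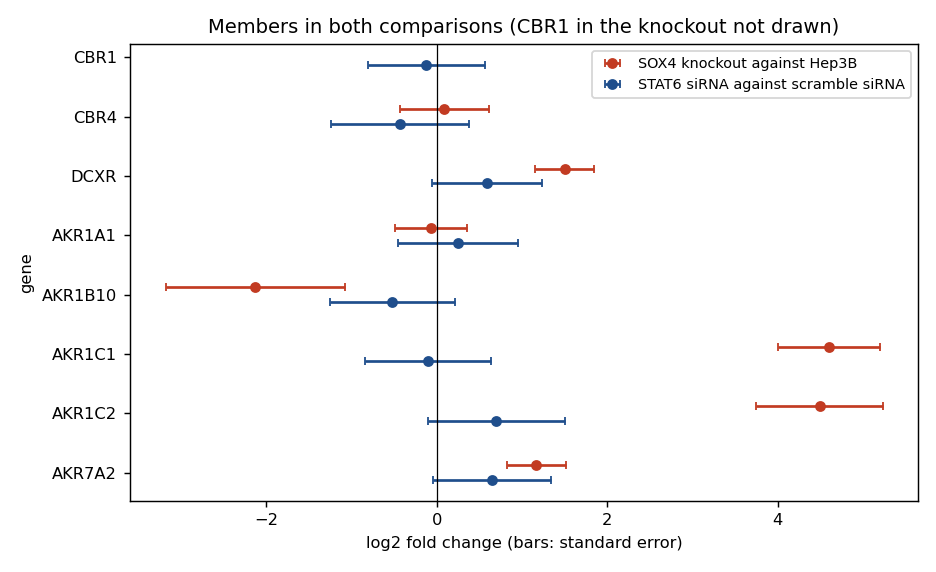
Log2 fold change (points) with its SE (bars) for the 8 tested members in the SOX4 knockout (red) and after STAT6 siRNA (blue), with CBR1 in the knockout left out because its fall chose the group. AKR1C1 and AKR1C2 stand at 4.6 and 4.49 in the knockout, and every siRNA value lies between -0.52 and 0.70.

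In the knockout 8 members passed the filter on low counts and were tested, AKR1C2 only through the libraries where it was high, as it had fewer than 10 counts in both Hep3B libraries. Apart from CBR1, which gets no test, 3 of the other 7 were called higher and 0 lower, set beside 4.5% and 1.39% of the 14415 genes tested. Without knockout library 2, 0 members were called higher, and without knockout library 1, AKR1C1 was the only one called higher. As the members were chosen with results of this contrast known, nothing is read from that count. Both knockout libraries lay above both Hep3B libraries for 4 of the 7 (DCXR, AKR1C1, AKR1C2 and AKR7A2), as they did for 30.6% of all genes tested. The reverse, found for 27.4% of all genes tested, held for 0 of the 7.

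After STAT6 siRNA 0 of the 8 tested members were called by edgeR, with or without the library number as a block. With the block 62 genes were called, and 4 members and 1495 genes had an unadjusted edgeR p below 0.05. Without the block 0.0% of all 13554 genes tested were called, and 0 members and 14 genes had an unadjusted edgeR p below 0.05. The DESeq2 Wald test called 0 genes. STAT6 itself had an adjusted p of 1.00 in the edgeR fit without the block, with a log2 change of -2.22 (SE 0.72), so a change of that size was not called there. The median log2 change of the 8 members was 0.08, against -0.03 over all genes tested. In the test of the difference between both effects, 0.0769% of 14313 genes were called, and 0 of the 7 tested members other than CBR1 were (AKR1C1 and AKR1C2 had an unadjusted p below 0.05).

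The other aldo-keto reductases included the remaining genes of the AKR1C cluster. Of 10 genes listed, 8 had rows and 5 were tested in the knockout. Among these 2 were called higher and 0 lower, beside 4.5% and 1.39% over all genes tested. AKR1C3, which forms testosterone and acts on prostaglandins, had 1 count in each Hep3B library and 67 and 12 in the knockout, a ratio of 32.4 with an exact 95% interval of 8.68 to 272 (edgeR adjusted p = 0.0499). It was called in 5 of the 11 alternatives that tested it. AKR1C3 and AKR1C4 passed the filter on low counts only through the knockout libraries, so they had to be higher there to be tested, and their calls support nothing on the list. With scramble siRNA AKR1C3 had 21.0 and 14.5 counts, more than either Hep3B library and as many as or more than the 12 counts of knockout library 2. AKR1C4, the liver form that works in bile acid synthesis, had 0.284 and 0.158 CPM in Hep3B and 3.41 and 3.08 CPM in the knockout, with a log2 change of 3.85 (SE 0.74, edgeR adjusted p = 0.0329). AKR1C4 stayed between 0.0735 and 0.206 CPM in the 4 siRNA table libraries. With at least 10 counts in every library, 3 genes of the list were left and 0 were called, and without knockout library 1 or without knockout library 2 it was also 0. After STAT6 siRNA 3 genes were tested, and 0 were called by edgeR or DESeq2 or had an unadjusted p below 0.05.

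Among 48 other carbonyl-reducing dehydrogenases, 40 were tested in the knockout, and 3 were called higher and 0 lower, a count to be read beside the 4.5% and 1.39% over all genes tested. These were HSD17B8, RDH5 and HPGD, with log2 fold changes of 3.09 (SE 0.55), 3.77 (SE 0.72) and 2.68 (SE 0.56). RDH5 is a retinol dehydrogenase, and HPGD oxidises prostaglandins rather than reducing a carbonyl. RDH5 had 0.341 and 0.422 CPM in Hep3B and 7.12 and 3.46 CPM in the knockout, and HPGD had 20.4 and 6.8 CPM against 104 and 70.2 CPM. RDH5 passed the filter on low counts only through the knockout libraries, so it had to be higher there to be tested. Its call supports nothing on the list. With at least 10 counts in every library, 35 genes of the list were tested and 2 were called higher. The median log2 change of the list was 0.53, against 0.01 over all genes tested, and 33 of the 40 values were above 0. DESeq2 called 4 higher and 0 lower. With edgeR 6 were called higher without Hep3B library 1, and 0 were called without knockout library 1, without knockout library 2 or with GC and length offsets and the replicate block. After STAT6 siRNA 39 were tested, and without the block 0 were called by edgeR or DESeq2 or had an unadjusted p below 0.05. With the block 9 had an unadjusted edgeR p below 0.05 and 0 were called, and the offsets with the block called 2 higher.

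Several of the members, CBR1, AKR1B10 and the AKR1C genes among them, are known as genes induced by NRF2, the regulator of the antioxidant response. Of 22 other NRF2 targets, all tested in the knockout, 5 were called lower and 0 higher, beside 1.39% and 4.5% over all genes tested. Their median log2 fold change was -0.58, against 0.01 over all genes tested. The 5 were SLC7A11, the cystine transporter (log2 fold change -2.81, SE 0.42), UGDH, which makes UDP-glucuronate (-2.08, SE 0.36), TXNRD1, thioredoxin reductase (-2.01, SE 0.38), GSR, glutathione reductase (-1.57, SE 0.36), and HMOX1, heme oxygenase (-2.95, SE 0.69). Their adjusted p-values from edgeR ran from 0.02 to 0.0498. TXNRD1 had 611 and 558 CPM in Hep3B and 136 and 154 CPM in the knockout. NQO1, a quinone reductase of the same list, had a log2 change of -0.08 (SE 0.38, edgeR adjusted p = 0.921). EPHX1 and ABCC3, named after their values were seen, had both knockout libraries above both Hep3B libraries, with log2 values of 1.64 (SE 0.48) and 1.33 (SE 0.48), and were not called. Any part of NRF2 in these differences was not tested. DESeq2 called 6 of the list lower and 1 higher, edgeR called 8 lower and 1 higher without Hep3B library 1, and 0 were called without knockout library 1, without knockout library 2 or with GC and length offsets and the replicate block. After STAT6 siRNA, without the block, 0 of the 22 were called by edgeR or DESeq2 or had an unadjusted p below 0.05. With the block 3 had an unadjusted edgeR p below 0.05 and 0 were called, and the offsets with the block called 1 lower.

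**Figure D3:**
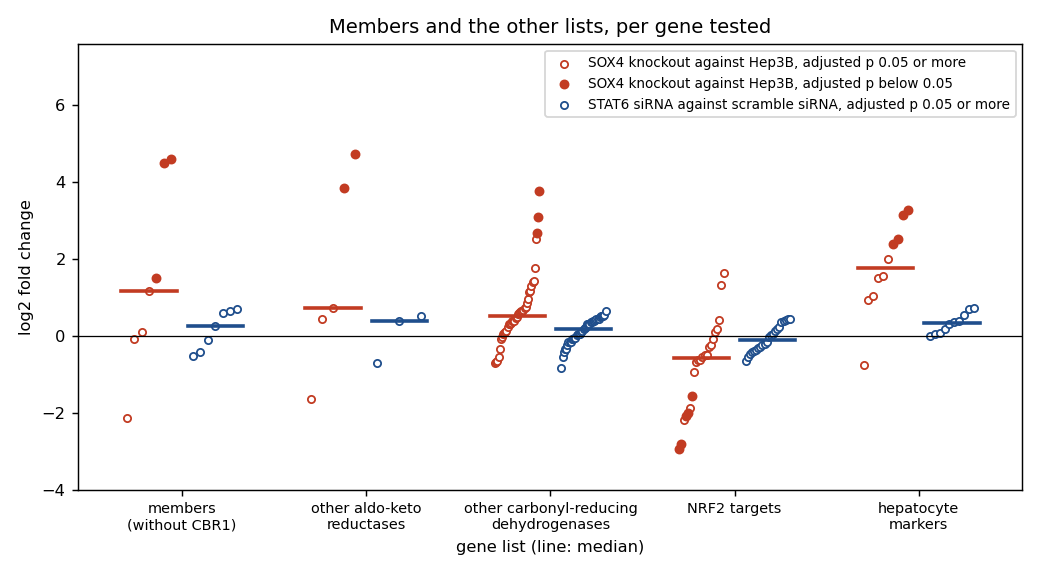
Log2 fold change of each tested gene in the members (without CBR1) and 4 other lists, in the SOX4 knockout (red) and after STAT6 siRNA (blue), with filled points for an adjusted p below 0.05 and a line at the median. In the knockout the medians were 0.73 for the other aldo-keto reductases, 0.53 for the other carbonyl-reducing dehydrogenases, -0.58 for NRF2 targets and 1.78 for hepatocyte markers.

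The genes whose log2 CPM over the 8 libraries was most like that of CBR1, out of 14312 compared, were KIF1A (Pearson r 0.994), ATP6V1G2-DDX39B (0.991), SEPHS1 (0.99), XBP1 (0.987) and LAPTM4B (0.987). The points share a drop in the same pair of knockout libraries, and the values are a description. KIF1A, a kinesin motor gene, had 237 and 477 CPM in Hep3B, 3.67 and 6.32 CPM in the knockout and 262 to 400 CPM in the siRNA table. ATP6V1G2-DDX39B is a readthrough transcript that overlaps DDX39B, so its counts are uncertain. No member was among these 5, and the members' own r with CBR1 ran from -0.89 for AKR1C1 to 0.72 for AKR1B10.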

How the data were processed

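RNA-seq of 8 Hep3B libraries was analysed. The authors deposited expected counts (estimated read counts per RefSeq transcript, not normalised) in a table per comparison. The submitters' processing notes name STAR, Partek and hg38 without versions, and the quantifier and the strand setting are not given in the sources used here. Every transcript summed to at least 10 counts in its table. The design had assumed counts, so expected counts were summed per gene and rounded. A separate edgeR 4.0.16 model per table (R 4.3.3) used TMM factors, the filterByExpr filter, glmQLFit and glmQLFTest, and genes were called at a Benjamini-Hochberg adjusted p below 0.05. The difference between the effects was a contrast over all 8 libraries. Standard errors were the log2 fold change divided by the square root of F. Alternatives included DESeq2 1.42.0 and offsets from mgcv 1.9.3. The steps were tested on simulated data.

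The members and lists were chosen with earlier results of these data known. Genes named are the members, SOX4 and STAT6, genes within 500 kb of CBR1, genes called in the lists (at most 6 a list) and the 5 most correlated with CBR1. NQO1, EPHX1 and ABCC3 were named after their values were seen. Library totals of 16266282 to 25353113 set the precision, and intervals (Clopper-Pearson) cover counting error only.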

Additional observations from a re-analysis of the deposited data

How the results depend on the processing

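With 2 libraries a group, the calls depend on single libraries. The 849 genes called in the knockout became 2160 with the DESeq2 Wald test, 518 with at least 10 counts in every library, 438 in a fit of all 8 libraries and 76 with GC and length offsets and the library number as a block. Leaving out each library in turn gave 21 to 2298 genes. The offsets with the block moved the median log2 fold change of all genes from 0.01 to -0.14 (0.03 with the block alone). Members called higher in the knockout were 1 with at least 10 counts in every library and 1 with the offsets and the block. The former leaves out CBR1, AKR1B10 and AKR1C2. CBR1 was chosen for its fall and is not counted, and 0 of the others tested in either fit were called lower. AKR1B10 could thus be called only in the latter. On leaving out a library, the log2 fold change ran from 4.07 to 5.35 for AKR1C1 and from 3.81 to 4.97 for AKR1C2. The cause of these shifts was not tested apart from the genes left out.

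The numbers in the labels name no shared culture or day. Deviations of same-numbered libraries correlated at -0.0826 for the knockout and 0.874 for the siRNA libraries, over a single pair of pairs each. With the number as a block, 982 genes were called in the knockout, 62 after STAT6 siRNA (359 with the offsets) and 97 in the difference against 11 without it, with no member called after STAT6 siRNA. There 1495 genes and 4 of the 8 members (DCXR, AKR7A2, AKR1B10 and CBR4) had an unadjusted p below 0.05 with the block, as did 9 of 39 other carbonyl-reducing dehydrogenases, of which the offsets and the block called 2 higher, and 3 of 22 NRF2 targets, of which they called 1 lower. In the difference AKR1C1 was then called (1 member higher, log2 4.66, adjusted p = 0.00906 from edgeR). Leaving out libraries gave 0 to 127 genes in the difference and 0 to 1 members higher. The 0 to 1 members lower were CBR1 alone, which was chosen for its fall and is not counted. No other member was called lower there.

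Directions turned only for values that were not called. AKR1C1 after STAT6 siRNA was 0.01 with median-of-ratios factors, 0.01 with DESeq2 and 0.09 with the offsets and the block. On leaving out a library, log2 values in the knockout ran from -2.97 to 0.06 for AKR1B10, -0.44 to 0.83 for CBR4 and -0.52 to 0.47 for AKR1A1. After STAT6 siRNA they ran from -0.29 to 0.13 for CBR1, -0.42 to 0.25 for AKR1C1, -1.5 to 0.18 for CBR4, -0.55 to 1.06 for AKR1A1, -0.18 to 1.31 for DCXR, -0.19 to 1.26 for AKR1C2 and -0.34 to 1.42 for AKR7A2. In the difference they ran from -2.54 to 0.51 for AKR1B10, -0.15 to 1.44 for CBR4, -1.18 to 0.42 for AKR1A1 and -0.29 to 1.45 for AKR7A2. Depth limits CBR3, at 1 to 13 counts a library.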
